A study of Mus musculus with 6 samples.

Results

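*Prg4* *Angptl1* cells are a set of 893 cells among the 53443 barcodes of mouse lower abdominal muscle that passed 2 limits, at least 1000 unique molecular identifiers (UMIs) and at most 10% of UMIs in mitochondrial genes. The cells were chosen by their UMIs alone. Each had at least 3 UMIs of *Prg4* and at least 3 of *Angptl1*, none of *Wif1*, *Chodl*, *Myoc* or *Pecam1*, and a UMI of fewer than 2 of the skin genes *Dmkn*, *Sbsn* and *Krtdap*. The working name of these cells was tenocyte progenitor, after a cluster of the study marked by *Prg4*, *Angptl1*, *Gas1*, *Tgfbi*, *Itgbl1* and *Aspn*. The study proposed that name because many cells of the cluster carried *Tppp3*, a proposed marker of tendon progenitors. Some tenocyte markers were also expressed there, at low levels. The cluster shared *Tgfbi*, *Angptl1*, *Prg4* and *Cpxm2* with the tenocyte cluster of the study. The study's pseudotime analysis, with its start set by choice, placed it on a lineage that ended in tenocytes. That lineage was not examined here. Here a *Tppp3* UMI was found in 58.7% of the cells, against 37.6% of cells gated on *Pecam1*. Tenocyte genes were below their level in cells gated on *Wif1* and *Comp* and mostly above that in the other barcodes. These levels do not decide whether the cells are progenitors. The name is therefore not used, and they are called *Prg4* *Angptl1* cells throughout.

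The series compared 3 WT male mice with 3 Arom hum male mice, all FVB/N and 9 to 10 weeks old, with 1 library per mouse. Arom hum mice, labelled Arom and recorded with scrotal hernia, carry the human aromatase gene under its own human promoters. The WT animals were littermates recorded as controls. Minced muscle was digested with collagenase and Dispase, passed through filters meant to hold back multinucleated cells and sequenced on a droplet platform. Each of 3 processing dates took 1 WT mouse and 1 Arom littermate, and the labels do not say which replicate numbers share a date. *CYP19A1*, the human aromatase transcript, had 0 UMIs in each WT library and 770, 797 and 787 UMIs in the Arom libraries, as the labels state. Within the *Prg4* *Angptl1* cells it had 50, 45 and 23 UMIs in Arom mice (10.9, 8.20 and 8.46 CPM, the UMIs of a gene scaled to a common total of UMIs) and 0 in WT mice, which allowed up to 3.45, 7.63 and 6.52 CPM.

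*Prg4* encodes lubricin, a secreted glycoprotein that coats gliding surfaces of joints, tendons and fascia, and *Angptl1* encodes a secreted angiopoietin-like protein. Fibroblasts of muscle connective tissue lay down collagens, proteoglycans and matricellular proteins, and those of tendon, the tenocytes, are known for *Scx*, *Tnmd*, *Fmod* and *Comp*. Aromatase converts androgens to estrogens, and estrogen bound to its receptor, the product of *Esr1*, turns on targets such as *Pgr* and *Greb1* in responsive cells.

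WT mice gave 78, 32 and 35 of the 893 cells, and Arom mice gave 257, 356 and 135. They were deeper than the other 52550 barcodes, with a median of 14062 UMIs against 7491. Median depth per mouse was 10201.5, 10952 and 12594 UMIs in WT and 15735, 13139 and 19670 in Arom cells, so every Arom mouse was above every WT mouse. Summed over cells, WT mice contributed 869116, 393225 and 460098 UMIs and Arom mice 4567405, 5487621 and 2717988. WT values therefore rest on fewer cells and fewer UMIs.

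The genes of the rule are given as a description. *Prg4* (mouse build GRCm38.p6, chromosome 1, 150449412 to 150466221) had a median of 7 UMIs per member, with quartiles at 4 and 16 and a maximum of 476. *Angptl1* (chromosome 1, 156839023 to 156861078) had a median of 8 UMIs, with quartiles at 5 and 16 and a maximum of 187. Of the members, 139 (15.6%) had exactly 3 UMIs of *Prg4* and 122 (13.7%) exactly 3 of *Angptl1*. The 139 cells just inside the *Prg4* threshold had pooled levels of 378 CPM for *Gas1*, 217 for *Tgfbi*, 361 for *Itgbl1* and 649.6 for *Aspn*. The 196 cells just outside, with 2 UMIs of *Prg4*, had 385, 234, 336 and 661 CPM for these 4 genes in the same order. At the *Angptl1* threshold the levels were 204, 135, 298 and 487 CPM in the 122 cells inside and 234, 113, 246 and 484 CPM in the 142 cells outside. The threshold therefore cut through cells with like levels of the other label markers.

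Most cells with *Prg4* and *Angptl1* at the threshold were removed by 1 condition. There were 4450 such cells, and a UMI of *Myoc*, the gene of myocilin, was found in 3159 of them (71.0%), of which 2103 failed on *Myoc* alone. *Chodl* removed 597, *Pecam1* 414, the pair of skin genes 367 and *Wif1* 345, with overlaps between conditions. Dropping the *Myoc* condition and keeping the others left 2996 cells, which are called *Prg4* *Angptl1* cells with any *Myoc*.

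The 4 label markers that the rule did not use were present in the *Prg4* *Angptl1* cells, whereas tenocyte genes lay below their level in cells gated on *Wif1* and *Comp*. Levels here are plain CPM over the UMIs summed per mouse, as mean ± SD over the 6 mice. *Gas1*, which encodes a cell-surface protein that binds hedgehog ligands, was at 583 ± 319 CPM. *Tgfbi*, a secreted matrix protein induced by TGF-beta, was at 469 ± 373 CPM. *Itgbl1*, a secreted integrin-beta-like protein, was at 364 ± 140.2 CPM, and *Aspn*, a small proteoglycan, was at 924 ± 469 CPM. A UMI of these genes was seen in 80.7%, 52.1%, 82.3% and 91.8% of members in that order, pooled over mice and so mostly in Arom cells. After each cell was thinned to 3000 UMIs the pooled shares were 48.0%, 31.0%, 50.9% and 67.9%, against 4.78%, 6.74%, 0.571% and 12.9% in cells gated on *Pecam1*. By the mean over mice the thinned shares were 58.9%, 49.5%, 56.6% and 72.4%. *Tgfbi* differed most by genotype: without thinning its share was 97.4%, 93.75% and 85.7% in WT and 39.7%, 35.7% and 74.1% in Arom mice.

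Cells gated on *Wif1* and *Comp*, at least 3 UMIs of each, served as the comparison for tenocyte genes, and their *Comp* level was set by the gate. *Tnmd*, the gene of tenomodulin, was at 162 ± 141 CPM in the *Prg4* *Angptl1* cells and 3048 ± 442 CPM in the 502 *Wif1* *Comp*-gated cells. *Fmod*, which encodes the collagen-binding fibromodulin, was at 451 ± 341 against 6509.6 ± 823 CPM. *Scx*, the gene of the tendon transcription factor scleraxis, was at 13.4 ± 19.6 against 200.2 ± 75.8 CPM. In 2 of these 3 genes no mouse's *Prg4* *Angptl1* cells came near any mouse's *Wif1* *Comp*-gated cells: the highest level was 429.8 CPM of *Tnmd* and 1078 CPM of *Fmod*, and the lowest *Wif1* *Comp*-gated levels were 2359 and 5514 CPM. Over the 14 genes of the tenocyte list, the mean was lower in the *Prg4* *Angptl1* cells than in the *Wif1* *Comp*-gated cells for 14, and for 10 every mouse lay below every mouse. It was higher than in all other barcodes for 13, of which 6 were higher in 6 of 6 mice. *Thbs4*, the gene of thrombospondin 4, was at 948 ± 576 CPM, against 1205 ± 238 CPM in the *Wif1* *Comp*-gated cells and 367 ± 123 CPM in all other barcodes. The label markers did not mark the *Prg4* *Angptl1* cells off from the *Wif1* *Comp*-gated cells, since *Tgfbi* was at 1344 ± 129 and *Itgbl1* at 599 ± 75 CPM in *Wif1* *Comp*-gated cells.

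A further comparison was with the 4051 cells gated on *Myoc* and *Hmcn2* with fewer than 3 UMIs of *Prg4*. Of the 14 tenocyte genes, the mean of 14 was higher in the *Prg4* *Angptl1* cells than in these, 4 of them in 6 of 6 mice. *Gas1* was at 519 ± 272 CPM and *Aspn* at 897 ± 124 CPM in the *Myoc*-gated cells. *Itgbl1* was at 145 ± 28.9 CPM there, below the *Prg4* *Angptl1* mean. *Tppp3*, a gene used to mark tendon sheath progenitors, was at 258 ± 136 CPM in the *Prg4* *Angptl1* cells and 696 ± 242 CPM in the *Myoc*-gated cells. *Pdgfra*, the receptor that marks fibro-adipogenic progenitors, was at 267 ± 114, 244 ± 40.0 and 30.4 ± 18.7 CPM in *Prg4* *Angptl1*, *Myoc*-gated and *Wif1* *Comp*-gated cells. These comparisons are descriptions, because the cells were gated on genes that travel with the markers.

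**Figure D1:**
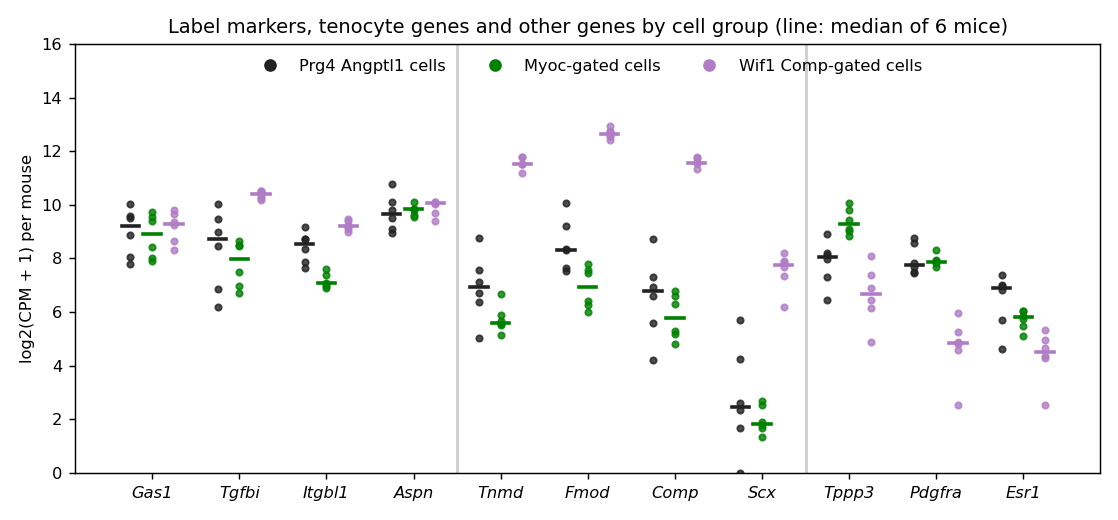
Level of 4 label markers (left), 4 tenocyte genes (middle) and 3 other genes (right) in 3 sets of gated cells, as log2(CPM + 1) with 1 point per mouse and a bar at the median of the 6 mice. *Tnmd*, *Fmod*, *Comp* and *Scx* lay lower in the *Prg4* *Angptl1* cells than in the *Wif1* *Comp*-gated cells, whereas *Gas1*, *Itgbl1* and *Aspn* overlapped between these sets.

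Genes were ranked by the ratio of their levels after 20 CPM was added to each level, which lowers the rank of genes at low levels. By the mean of the 6 mice, each weighted equally, *Mup5*, a major urinary protein gene, led the genes raised in the *Prg4* *Angptl1* cells over all other barcodes, at 449 against 53.1 CPM. *Tspan8*, a tetraspanin gene, followed at 161 against 22.8 CPM and *Wisp2*, a CCN-family matricellular gene, at 534 against 115 CPM. *Wisp2* was uneven across mice, at 372, 181 and 237 CPM in WT and 992, 1205 and 215 CPM in Arom mice, so Arom1 and Arom2 carried most of it. Pooled over mice, *Tspan8* was at 178 CPM in the members of column group 8 and 0.139 CPM in those of column group 10, and *Mup5* at 607 against 70.6 CPM. *Eln*, the gene of elastin, was at 1330.2 against 327 CPM and *Cilp*, a cartilage matrix gene, at 1929 against 615 CPM. *Fibin*, a gene of the tenocyte list, was at 635 against 176 CPM. When UMIs were pooled over all cells, most of which were from Arom mice, *Wisp2* led with 844 against 138 CPM, and the tenocyte list genes *Fibin*, *Thbs2*, *Thbs4* and *Col12a1* stood at ranks 2, 4, 13 and 18. Since these genes travel with the genes of the gate, no test is given.

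The deposited columns run through the 6 libraries 30 times, and each run is called a column group here. What the order stands for is not given in the sources used here. Column group 8 held 467 members (52.3%), column group 10 held 352 (39.4%) and the remaining 74 lay in other column groups. The makeup differed by genotype. Column group 10 held 14.1%, 12.5% and 8.57% of the WT mice's members and 42.0%, 41.9% and 57.0% of the Arom mice's, a difference of 35.2 percentage points with no overlap between genotypes (2-sided exact permutation test, p = 0.1, the lowest that 3 against 3 allows). Among cells with any *Myoc* the difference was 14.5 points, and among all barcodes within the limits column group 10 took 3.73% ± 1.55 in WT and 11.9% ± 2.56 in Arom mice (SD, n = 3 mice each), also with no overlap. Column group 8 held 82.1%, 75% and 77.1% in WT and 45.5%, 51.7% and 37.8% in Arom mice.

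The *Prg4* *Angptl1* cells of these column groups carried different levels of estrogen-related genes. *Esr1*, the gene of estrogen receptor alpha, was at 30.4 ± 16.3 CPM in column group 8 (6 mice) and 211 ± 29.6 CPM in column group 10 (4 mice with at least 10 cells, 1 of them WT). *Pgr*, the progesterone receptor gene, was at 16.2 ± 25.2 against 104 ± 58.2 CPM. *Nppc*, which encodes C-type natriuretic peptide, was at 51.2 ± 89.5 against 900.3 ± 841 CPM. *Fbln1*, the gene of the matrix protein fibulin 1, ran the other way, at 1184 ± 513 against 137 ± 67.3 CPM. Genotype is mixed into these levels, and into all levels pooled over mice by column group in this text. Column group 8 held 115 WT and 352 Arom members, and column group 10 held 18 and 334. In 4 of the 4 mice compared, *Nppc* was higher in column group 10 and *Fbln1* in column group 8. A genotype difference over all *Prg4* *Angptl1* cells can therefore combine a change of makeup with changes inside each column group, and values within column groups are given beside the main ones for some genes and lists.

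**Figure D2:**
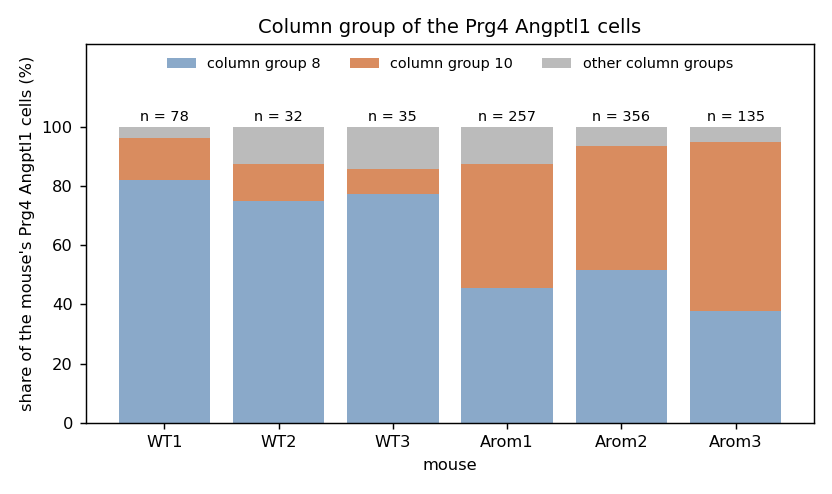
Share of each mouse's *Prg4* *Angptl1* cells that lay in column group 8, column group 10 or another column group of the deposited table, with the number of cells above each bar. Column group 10 held at most 14.1% in the WT mice and at least 41.9% in the Arom mice.

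*Prg4* *Angptl1* cells made up a larger share of the barcodes in Arom than in WT mice. The share was 0.915%, 0.433% and 0.517% in WT mice and 2.40%, 2.92% and 1.71% in Arom mice, with no overlap. The means were 0.622% ± 0.257 and 2.35% ± 0.607 (SD, n = 3 mice each), a difference of 1.72 percentage points (2-sided exact permutation test, p = 0.1, the lowest possible). The share counts cells over the limits, not cells in the tissue.

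The difference in share depended on the *Myoc* condition. With *Myoc* at any level, the share was 4.49%, 6.76% and 4.35% in WT and 5.13%, 4.78% and 8.73% in Arom mice, a difference of 1.02 points with overlap between genotypes (exact permutation test, p = 0.5). With no exclusion at all the difference was 0.698 points (exact permutation test, p = 0.9). Among *Prg4* *Angptl1* cells with any *Myoc*, *Myoc* was at 0 in 20.4%, 6.41% and 11.9% of the WT mice's cells and 46.9%, 61.1% and 19.6% of the Arom mice's. *Myoc* is a gene of the rule, so these shares are a description with no test. After thinning to 3000 UMIs these shares were 26.9%, 11.2% and 14.7% against 56.3%, 69.3% and 31.8%, without overlap. Within column group 10, *Myoc* was at 0 in 27.5%, 9.52% and 11.5% of WT and 82.4%, 86.6% and 63.1% of Arom cells with any *Myoc*, without overlap. In column group 8 the shares were 19.3%, 5.66% and 10.5% against 32.3%, 50.4% and 9.75%, with overlap.

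Depth moved with genotype, and the share was also taken after thinning. With at least 1 UMI of *Prg4* and of *Angptl1* in 3000, and *Myoc* at 0, it was 2.12%, 1.40% and 1.17% in WT and 3.75%, 4.66% and 3.57% in Arom mice. The same gate of 3 UMIs after thinning gave a difference of 0.363 points, also without overlap. With an upper limit of 2500 genes per barcode, which the study used, the difference was 0.270 points with overlap (exact permutation test, p = 0.3).

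**Figure D3:**
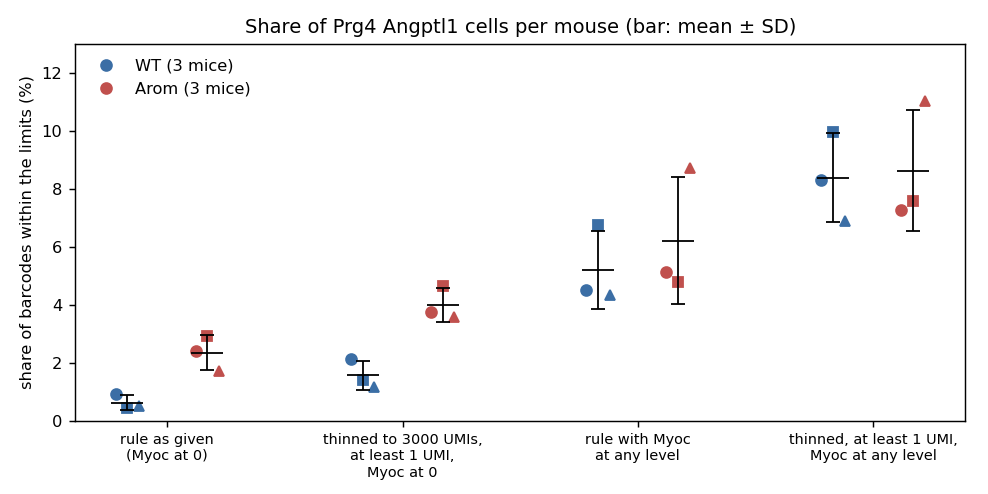
Share of barcodes within the limits that were *Prg4* *Angptl1* cells in each mouse (%), under the rule and 3 alternatives, with points for mice and black bars at the mean ± SD of 3 mice. The genotypes were apart where *Myoc* had to be at 0 and overlapped where *Myoc* could take any level.

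Members' UMIs were summed per mouse to compare genotypes inside the *Prg4* *Angptl1* cells. CPM in this and the following comparisons are scaled with edgeR's TMM factors, fold changes are Arom over WT, and adjusted p values come from the quasi-likelihood test of edgeR, with Benjamini-Hochberg correction across the 8670 genes with enough counts. In all, 587 genes (6.77%) passed an adjusted p of 0.05, of which 229 (2.64%) rose and 358 (4.13%) fell in Arom mice. *Sbsn*, a gene of the rule, is within these counts and is not read as a result. The median log2 fold change over all genes tested was 0.02. At an unadjusted p of 0.05 there were 2033 genes (23.4%), and 2547 genes (29.4%) did not overlap between genotypes. The count depended on single mice: without WT1 it was 107, without WT2 372, without WT3 116, without Arom1 110 and without Arom2 187. With any 1 mouse left out, all of the 587 genes that could still be tested kept their direction. Their fold changes were at a median of 0.955 to 1.04 of their size. The part that the smaller number of mice had in these counts was not tested.

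Fits restricted to some column groups made fewer calls. Column group 8 alone gave 132 calls among 6200 genes (2.13%), 59 higher (0.952%) and 73 lower (1.18%), and 112 of the 587 genes were among them in the same direction. With any *Myoc*, column group 8 gave 393 calls among 10166 genes (3.87%) and column group 10 gave 513 among 8622 (5.95%), of which 155 and 252 were among the 587. Without column group 10 there were 180 calls among 6622 genes (2.72%), and with *Myoc* at any level in all column groups 959 among 11207 (8.56%). These sets share cells with the whole set. Of the 587 genes, 489 of the 490 tested in column group 8 and 521 of the 522 tested without column group 10 had the same direction there, with fold changes at a median of 0.813 and 0.833 of their size. Both fits rest on fewer cells and fewer tested genes. With any *Myoc* the median was 0.645 over all column groups, 0.494 in column group 8, where 552 of 573 had the same direction, and 0.738 in column group 10, where 528 of 539 had. Column group 8 with any *Myoc* held 256 to 523 cells per mouse, more than the whole set in each mouse. The part of cell number, makeup and the *Myoc* condition in these counts was not tested. These sets were chosen after the data were seen. In the text, a gene is said to be called inside column group 8 only where it passed there.

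Several genes with estrogen-related roles rose in the Arom mice. Of 10 tested genes among sex steroid receptors and estrogen targets, 5 rose and none fell, with a median log2 fold change of 1.31 against 0.02 over all genes. Some of these genes were listed with their change in these same mice already known, so the count is no independent evidence. *Nppc* was at 11.6, 2.51 and 16.4 CPM in WT and 1109, 530.4 and 339.9 CPM in Arom mice, and each Arom mouse was far above each WT mouse (log2 fold change 5.96 ± 0.58, edgeR adjusted p = 0.00161). *Pgr* was at 5.17, 2.51 and 0 CPM in WT and 75, 123 and 60.3 CPM in Arom mice (log2 fold change 4.78 ± 0.55, edgeR adjusted p = 0.00366). It rested on 5 UMIs in WT mice against 1210 in Arom mice, a ratio of 32.6 with a counting interval of 13.9 to 101. *Greb1*, a coactivator induced by estrogen, was at 15.5, 32.7 and 7.01 CPM in WT and 91.6, 136 and 89.8 CPM in Arom mice (log2 fold change 2.58 ± 0.38, edgeR adjusted p = 0.00702). *Inhba*, which encodes the activin A subunit, was at 139.5, 32.7 and 9.35 CPM in WT and 718, 571 and 250.4 CPM in Arom mice, with WT1 apart from the other WT mice (log2 fold change 2.95 ± 0.67, edgeR adjusted p = 0.0334).

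*Esr1* itself did not pass. It was at 58.1, 111 and 25.7 CPM in WT and 125, 122 and 153 CPM in Arom mice, with WT2 close to the Arom mice (log2 fold change 1.06 ± 0.36, edgeR adjusted p = 0.11). Within column group 8 alone none of 9 tested genes of the list passed, by edgeR, and *Greb1* had a log2 fold change of 3.60 (edgeR adjusted p = 0.0574). With any *Myoc* in column group 8, *Greb1* passed at 3.10 (edgeR adjusted p = 0.0326), and in column group 10 *Pgr* passed at 4.63 (edgeR adjusted p = 0.00231) and *Nppc* at 4.06 (edgeR adjusted p = 0.00616), while *Greb1* was at 0.94 there (edgeR adjusted p = 0.0675). *Nppc* did not pass in column group 8 with any *Myoc*, at 2.33 (edgeR adjusted p = 0.0762).

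The windows upstream of *Greb1* and *Pgr* are shown because both genes rose and both are known estrogen targets. RefSeq gives *Greb1* a pair of windows and *Pgr* 1. They are 250 bases before a RefSeq transcription start on build GRCm38.p6, 5′ to 3′ along the gene, with each GGTCA or TGACC, 1 arm of the estrogen response element, in capitals. The full element is GGTCA and TGACC with 3 bases between them.
Greb1, chr12:16800887-16801136, minus strand: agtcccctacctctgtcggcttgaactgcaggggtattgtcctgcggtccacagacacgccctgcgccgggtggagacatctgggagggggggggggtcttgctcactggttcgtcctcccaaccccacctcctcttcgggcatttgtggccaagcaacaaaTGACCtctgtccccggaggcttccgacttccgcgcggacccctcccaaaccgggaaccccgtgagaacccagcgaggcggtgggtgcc
Greb1, chr12:16757240-16757489, minus strand: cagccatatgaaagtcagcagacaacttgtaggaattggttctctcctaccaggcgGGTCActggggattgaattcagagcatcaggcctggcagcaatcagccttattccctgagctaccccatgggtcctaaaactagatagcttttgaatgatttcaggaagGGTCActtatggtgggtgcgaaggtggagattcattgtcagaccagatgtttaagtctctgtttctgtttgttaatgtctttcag
Pgr, chr9:8899583-8899832, plus strand: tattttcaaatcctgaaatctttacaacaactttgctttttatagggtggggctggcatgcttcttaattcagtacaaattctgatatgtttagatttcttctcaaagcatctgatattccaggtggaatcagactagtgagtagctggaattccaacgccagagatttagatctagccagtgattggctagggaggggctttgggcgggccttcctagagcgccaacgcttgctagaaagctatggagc
The *Greb1* windows held 1 and 2 arms in that order and the *Pgr* window none, and no window shown held the full element. On either strand, GGTCA was in 35.3% of the 207 windows of genes that rose, 31.8% of the 374 of genes that fell and 35.2% of all 32851 windows. The full element was in none of the windows of tested genes and in 21 of all windows (0.0639%). A window belonged to 164 of the 229 genes that rose and 274 of the 358 that fell. These shares describe the letters of the windows only.

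The 12 genes with the largest called rise included secreted ligands and membrane proteins. *Erfe*, the gene of the hormone erythroferrone, was at 9.04, 22.6 and 4.68 CPM in WT and 363, 255 and 249.7 CPM in Arom mice (log2 fold change 4.66 ± 0.37, edgeR adjusted p = 0.00125). *Chrdl2*, which encodes a secreted BMP antagonist, was at 18.1, 0 and 0 CPM in WT and 379, 306 and 209 CPM in Arom mice, with its WT UMIs in 1 mouse (log2 fold change 5.16 ± 0.61, edgeR adjusted p = 0.00366). *Ramp3*, a receptor activity-modifying protein, was at 19.4, 0 and 2.34 CPM in WT and 260.2, 298 and 122 CPM in Arom mice (log2 fold change 4.58 ± 0.62, edgeR adjusted p = 0.00474). Column group 10 held 3654 of the 3855 UMIs of *Erfe* and 3549 of the 4091 UMIs of *Chrdl2*. *Arl4c*, a small GTPase, was at 10.3, 5.02 and 4.68 CPM in WT and 125, 229 and 73.5 CPM in Arom mice (log2 fold change 4.27 ± 0.56, edgeR adjusted p = 0.00397), and *Prune2* was at 2.58, 2.51 and 2.34 CPM in WT and 54.2, 64 and 21.3 CPM in Arom mice (log2 fold change 4.21 ± 0.70, edgeR adjusted p = 0.0121).

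For 5 of the 12 the WT level rested on 1 to 3 UMIs, and the ratio of the summed UMIs is given in place of the fitted fold. *Slpi*, a secreted protease inhibitor, had 3 UMIs in WT and 2603 in Arom mice, 117 times (counting interval 40.0 to 568), and 41.4% of its UMIs came from 5 cells. The Arom mice had 647, 1908 and 48 UMIs of *Slpi*, and without Arom2 the ratio was 54.8. *Tmem86a* had 3 against 1004 UMIs, 45.1 times (15.4 to 219), with 320, 634 and 50 UMIs in the Arom mice and a ratio of 29.2 without Arom2. *Etnk2* had 1 against 383 UMIs, 51.6 times (9.21 to 2045). *Lyz2* and *Cd74*, genes of macrophages and antigen-presenting cells, had 1 against 545 and 3 against 931 UMIs, and 5 cells held 81.5% and 82.7% of them. With any *Myoc*, *Lyz2* turned to a log2 fold change of -0.99 (edgeR adjusted p = 0.462). The 74 members outside column groups 8 and 10 held 79.9% of the UMIs of *Lyz2* and 76.3% of those of *Cd74*, and the doublet caller marked 8 of these 74 cells (10.8%) as doublets, of 10 (1.12%) over all members.

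The 12 genes with the largest called fall included proteoglycans, enzymes and secreted proteins. *Gpc3*, a cell-surface heparan sulfate proteoglycan, was at 271, 407 and 353 CPM in WT and 17.5, 18 and 37.3 CPM in Arom mice (log2 fold change -3.84 ± 0.32, edgeR adjusted p = 0.00125). *Penk*, which encodes proenkephalin, was at 301, 296 and 514 CPM in WT and 41.6, 24.3 and 50.8 CPM in Arom mice (log2 fold change -3.26 ± 0.32, edgeR adjusted p = 0.00161). *Inmt*, an indolethylamine methyltransferase, was at 264, 121 and 91.2 CPM in WT and 9.53, 9.11 and 4.74 CPM in Arom mice (log2 fold change -4.34 ± 0.42, edgeR adjusted p = 0.00161). In all of these every WT mouse was above every Arom mouse, and all were also called inside column group 8. With any *Myoc* there, *Gpc3*, *Penk* and *Inmt* passed at smaller values of -1.63, -1.54 and -2.78 (edgeR adjusted p = 0.0266, 0.00779 and 0.0409). *C7*, a terminal complement component, was at 376, 138 and 423 CPM in WT and 29.9, 40.2 and 42.7 CPM in Arom mice (log2 fold change -3.07 ± 0.36, edgeR adjusted p = 0.00366), and *Fmo2*, a flavin monooxygenase, was at 159, 111 and 208 CPM in WT and 7.58, 13.4 and 26.1 CPM in Arom mice (log2 fold change -3.39 ± 0.41, edgeR adjusted p = 0.00372). With any *Myoc* in column group 8, *C7* was at -1.10 and did not pass (edgeR adjusted p = 0.0743), and *Fmo2* passed at -2.44 (edgeR adjusted p = 0.0196). *Lgr5*, the R-spondin receptor, was at 96.9, 12.6 and 44.4 CPM in WT and 4.77, 4.47 and 9.49 CPM in Arom mice, with WT2 nearer the Arom mice than the other WT mice were (log2 fold change -3.23 ± 0.55, edgeR adjusted p = 0.0133). With any *Myoc* in column group 8 it was at -1.51 (edgeR adjusted p = 0.244).

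*Spock2*, another proteoglycan, was at 82.7, 57.8 and 63.1 CPM in WT and 4.12, 4.82 and 13.6 CPM in Arom mice (log2 fold change -3.30 ± 0.42, edgeR adjusted p = 0.00372). *Cdc42ep3*, *Ikzf4* and *Amy1* fell by 2.97, 2.94 and 2.90 on the log2 scale, all with edgeR adjusted p below 0.05 here and inside column group 8. With any *Myoc* there, they were at -1.56, -1.72 and -1.09, and *Amy1* did not pass (edgeR adjusted p = 0.0196, 0.0348 and 0.0513). *Col6a6*, a collagen VI chain, fell by 2.96 (log2 fold change -2.96 ± 0.75, edgeR adjusted p = 0.0468) with a log2 fold change of -1.49 inside column group 8 (edgeR adjusted p = 0.348). *Cldn5*, a tight junction gene of endothelium, was at 74.9, 15.1 and 18.7 CPM in WT and 0.65, 2.5 and 3.05 CPM in Arom mice (log2 fold change -4.33 ± 0.65, edgeR adjusted p = 0.00784), and 5 cells held 68.4% of its UMIs.

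**Figure D4:**
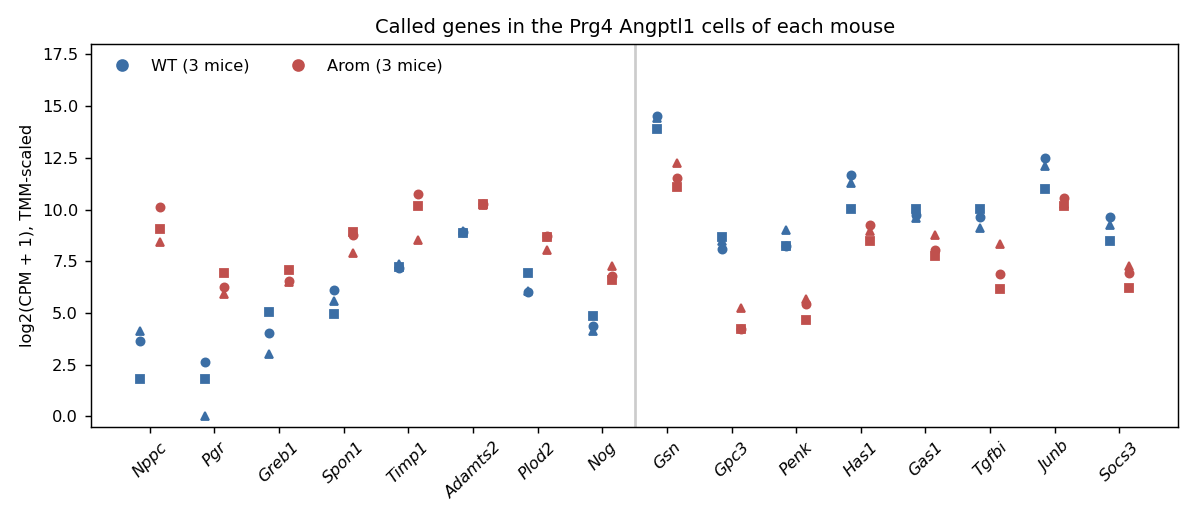
Level of 16 called genes in the *Prg4* *Angptl1* cells of each mouse, as log2(CPM + 1) after TMM scaling, with genes that rose left of the line and genes that fell right of it. For each of the 16 genes the 3 WT points and the 3 Arom points did not overlap.

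Collagen genes ran higher in Arom mice and few passed. Of 15 tested fibrillar and associated collagens, 2 rose and none fell, with a median log2 fold change of 0.70 and 14 values above 0. *Col12a1*, a fibril-associated collagen of tendon and fascia, was at 313, 231 and 206 CPM in WT and 1016, 955 and 493 CPM in Arom mice (log2 fold change 1.71 ± 0.29, edgeR adjusted p = 0.0133). *Col5a1*, which starts collagen fibrils, was at 255, 394 and 372 CPM in WT and 585, 529 and 632 CPM in Arom mice (log2 fold change 0.78 ± 0.20, edgeR adjusted p = 0.0476). *Col1a2*, a chain of collagen I, was at 6222, 8712 and 7105 CPM in WT and 13404, 12487 and 9846 CPM in Arom mice (log2 fold change 0.70 ± 0.23, edgeR adjusted p = 0.11) and did not pass. Inside column group 8, 4 of the 15 passed, all up, with a median of 1.20 and 15 values above 0. With any *Myoc* the median was 0.87 in column group 8 (6 passed, all up) and 0.29 in column group 10 (4 passed, all up, and 5 values below 0).

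Enzymes that modify collagen moved in both directions. Of 19 tested genes 2 rose, 2 fell and 15 did not pass. *Plod2*, the lysyl hydroxylase of collagen telopeptides, was at 63.3, 121 and 65.5 CPM in WT and 427, 401 and 266 CPM in Arom mice (log2 fold change 2.16 ± 0.29, edgeR adjusted p = 0.00413), and it was also called inside column group 8 at 2.97 (edgeR adjusted p = 0.00971). *P4ha3*, a prolyl hydroxylase subunit, was at 25.8, 35.2 and 4.68 CPM in WT and 106, 121 and 60.0 CPM in Arom mice (log2 fold change 2.11 ± 0.45, edgeR adjusted p = 0.0264). *Pcolce2*, an enhancer of procollagen cleavage, was at 531, 425 and 482 CPM in WT and 46.6, 42.2 and 118 CPM in Arom mice (log2 fold change -2.81 ± 0.37, edgeR adjusted p = 0.00413). *Loxl4*, a lysyl oxidase, fell by 1.56 on the log2 scale (edgeR adjusted p = 0.0337) at levels below 20 CPM, and it was at 0.048 in column group 8 with any *Myoc* (edgeR adjusted p = 0.916).

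The matrix proteases and inhibitors that passed the test were all higher. Of 15 tested, 5 rose and none fell, with a median log2 fold change of 0.77. *Timp1*, an inhibitor of metalloproteinases, was at 142, 148 and 166 CPM in WT and 1706, 1151 and 369.7 CPM in Arom mice, with Arom3 the lowest Arom mouse and still above the WT mice (log2 fold change 2.83 ± 0.47, edgeR adjusted p = 0.0121). *Mmp19* was at 64.6, 67.8 and 60.8 CPM in WT and 266, 284 and 228 CPM in Arom mice (log2 fold change 2.01 ± 0.17, edgeR adjusted p = 0.00125), and *Adamts2*, the procollagen N-proteinase, was at 488, 469.7 and 498 CPM in WT and 1239.8, 1217 and 1172 CPM in Arom mice (log2 fold change 1.32 ± 0.16, edgeR adjusted p = 0.00372). *Htra1*, a secreted serine protease, was at 394, 286 and 257 CPM in WT and 1219, 951 and 965 CPM in Arom mice (log2 fold change 1.73 ± 0.21, edgeR adjusted p = 0.00372). With any *Myoc* the median was 0.73 in column group 8 and 0.69 in column group 10. Inside column group 8, *Timp1* and *Adamts2* passed, at 2.87 (edgeR adjusted p = 0.0193) and 1.20 (edgeR adjusted p = 0.0287).

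Among 31 tested matricellular and elastic fiber genes 4 rose and 1 fell. *Spon1*, the gene of spondin 1, was at 67.2, 30.1 and 46.8 CPM in WT and 439, 483 and 234 CPM in Arom mice (log2 fold change 2.95 ± 0.35, edgeR adjusted p = 0.00366) and passed in column group 8 at 3.21 (edgeR adjusted p = 0.0104). *Thbs2* was at 518, 495 and 423 CPM in WT and 1370.0, 1614 and 719 CPM in Arom mice (log2 fold change 1.37 ± 0.28, edgeR adjusted p = 0.0245) and passed there at 1.81 (edgeR adjusted p = 0.00845). *Fbln1* was at 2018, 869 and 1246 CPM in WT and 464, 448 and 257 CPM in Arom mice (log2 fold change -1.83 ± 0.33, edgeR adjusted p = 0.0163), with -0.90 inside column group 8 (edgeR adjusted p = 0.133). Of 13 tested small proteoglycans 4 fell and none rose, with a median of -0.79. *Ogn*, the gene of osteoglycin, was at 1409, 1093 and 879 CPM in WT and 546, 719 and 462 CPM in Arom mice (log2 fold change -0.97 ± 0.23, edgeR adjusted p = 0.0401), and *Dcn*, the gene of decorin, was at 46403, 28783 and 29115 CPM in WT and 16117, 15746 and 16584 CPM in Arom mice (log2 fold change -1.11 ± 0.27, edgeR adjusted p = 0.042). *Omd* and *Podn* fell by 1.87 (edgeR adjusted p = 0.0364) and 0.80 (edgeR adjusted p = 0.042) on the log2 scale. *Omd* overlapped between genotypes, at 15.1 CPM in WT2 and 17.7 CPM in Arom2. With any *Myoc*, 2 proteoglycans rose and none fell in column group 8 (median 0.14), and 4 fell in column group 10 (median -0.98). None of 12 tested proteoglycans passed inside column group 8, by edgeR, and *Podn* turned to 0.34 there (edgeR adjusted p = 0.466).

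Ligands and inhibitors of the TGF-beta and BMP family moved in both directions. Of 11 tested ligands, *Tgfb1* and *Inhba* rose and *Bmp4* and *Gdf10* fell. *Tgfb1* was at 38.8, 40.2 and 44.4 CPM in WT and 76.5, 67.2 and 73.5 CPM in Arom mice (log2 fold change 0.82 ± 0.18, edgeR adjusted p = 0.0279), and *Bmp4* was at 74.9, 92.9 and 88.8 CPM in WT and 27.1, 16.3 and 35.9 CPM in Arom mice (log2 fold change -1.70 ± 0.29, edgeR adjusted p = 0.0129). *Gdf10* was at 34.9, 25.1 and 60.8 CPM in WT and 2.38, 10.0 and 4.41 CPM in Arom mice (log2 fold change -2.76 ± 0.52, edgeR adjusted p = 0.0172) and was the ligand also called inside column group 8. Among 14 tested inhibitors and targets, the BMP antagonists *Nog* and *Chrdl2* rose, and the targets *Id3* and *Tgfbi* fell. *Nog* was at 19.4, 27.6 and 16.4 CPM in WT and 109, 96.7 and 155 CPM in Arom mice (log2 fold change 2.52 ± 0.28, edgeR adjusted p = 0.0035), and *Id3*, induced by BMP signaling in many cells, was at 2514, 1693 and 2165 CPM in WT and 1213, 1112 and 904 CPM in Arom mice (log2 fold change -0.98 ± 0.21, edgeR adjusted p = 0.0279). Pooled over mice, *Nog* and *Chrdl2* were at 191 and 493 CPM in members of column group 10 and 11.7 and 32.7 CPM in those of column group 8. Inside column group 8 these 2 were not tested, and none of 12 tested inhibitors and targets passed, by edgeR. With any *Myoc* there, *Nog* was at 0.53 (edgeR adjusted p = 0.512) and *Chrdl2* passed at 3.85 (edgeR adjusted p = 0.0472). Among 16 tested receptors and SMADs, *Tgfbr2* rose by a log2 fold change of 1.26 ± 0.29 (edgeR adjusted p = 0.034) and *Smad2* changed by -0.89 ± 0.21 (edgeR adjusted p = 0.0347).

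Of 8 tested genes of insulin-like growth factors and their carriers 1 rose, 1 fell and 6 did not pass, with a median log2 fold change of -0.003. *Igfbp4* was at 717, 417 and 594 CPM in WT and 1947, 1362 and 1681 CPM in Arom mice (log2 fold change 1.53 ± 0.24, edgeR adjusted p = 0.00915) and *Igfbp3* at 377, 146 and 238 CPM in WT and 64.3, 41.3 and 35.2 CPM in Arom mice (log2 fold change -2.45 ± 0.34, edgeR adjusted p = 0.0056), both binding proteins of insulin-like growth factors, and both were called inside column group 8. With any *Myoc*, *Igfbp3* was at -0.81 in column group 8 (edgeR adjusted p = 0.241) and turned to 0.61 in column group 10 (edgeR adjusted p = 0.353). Of 19 tested Wnt genes 1 passed, *Wnt11*, which fell by 1.85 on the log2 scale (edgeR adjusted p = 0.0246). Of 7 tested angiopoietin-like and vascular ligands *Vegfc* fell by 1.30 (edgeR adjusted p = 0.0134). Of 17 tested chemokines and cytokines none passed, by edgeR. With any *Myoc*, 3 of 18 rose in column group 8 (median 0.76) and 4 of 16 in column group 10 (median 0.46), and none fell. *Ccl2* was at 5102, 2861 and 5978 CPM in WT and 8438, 5988 and 3462 CPM in Arom mice and *Ccl7* at 2545, 2077 and 3933 CPM in WT and 4065, 3647 and 1754 CPM in Arom mice. Of 17 tested complement and acute phase genes 1 passed, *C1qa*, whose UMIs came from few cells. With any *Myoc*, 3 of 17 rose and none fell in column group 8, and 2 of 15 rose and 1 fell in column group 10.

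**Figure D5:**
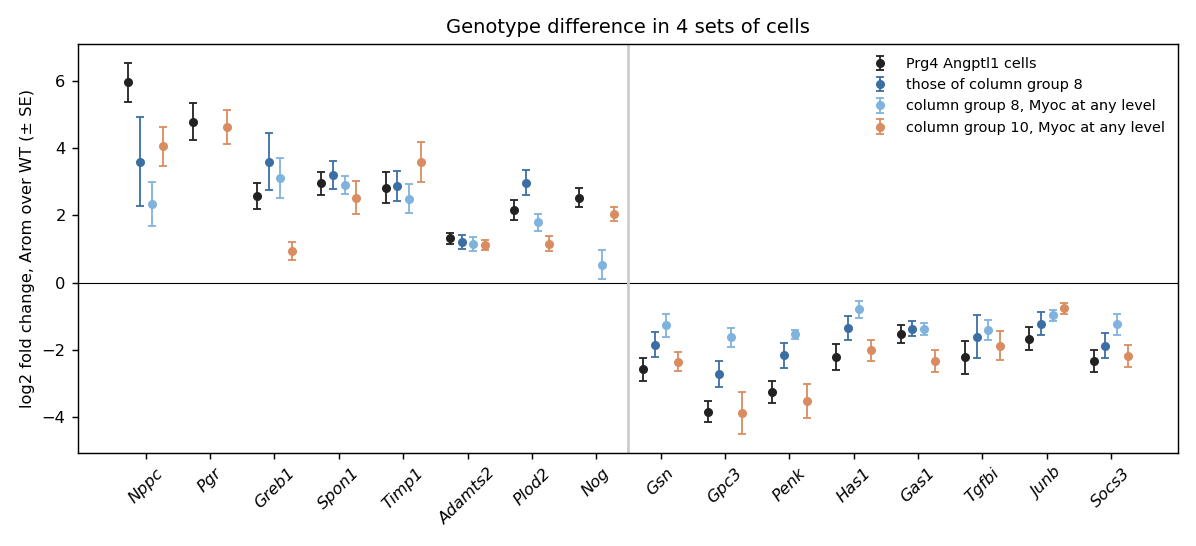
Log2 fold change, Arom over WT, ± SE for the same 16 genes in 4 sets of cells: all *Prg4* *Angptl1* cells, those of column group 8, and *Prg4* *Angptl1* cells with any *Myoc* in column groups 8 and 10. The direction was the same in the 4 sets wherever a value could be fitted, and the sets share cells.

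Of the 4 label markers outside the rule 3 fell in Arom mice. *Gas1* was at 857, 1035 and 776 CPM in WT and 263, 219 and 437 CPM in Arom mice (log2 fold change -1.54 ± 0.26, edgeR adjusted p = 0.0135). *Tgfbi* was at 793, 1042 and 549 CPM in WT and 115, 71.3 and 324 CPM in Arom mice, with Arom3 nearest the WT mice (log2 fold change -2.23 ± 0.50, edgeR adjusted p = 0.0315). *Itgbl1* was at 649.8, 419.5 and 451 CPM in WT and 231, 321 and 184 CPM in Arom mice (log2 fold change -1.05 ± 0.25, edgeR adjusted p = 0.0378), and *Aspn* was at 819, 1743 and 973 CPM in WT and 544, 487 and 1011 CPM in Arom mice and did not pass (log2 fold change -0.79 ± 0.35, edgeR adjusted p = 0.205). Only *Gas1* passed inside column group 8, at -1.37 (edgeR adjusted p = 0.0194), where *Itgbl1* was at -0.24 (edgeR adjusted p = 0.654). With any *Myoc* in column group 8, *Itgbl1* was at 0.15 (edgeR adjusted p = 0.770).

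A selection of 29 of the markers that the study listed for the matching cluster was also taken. Of the 27 tested, 11 fell and *Cilp* rose, with a median log2 fold change of -0.78. Inside column group 8 alone 3 fell and 1 rose, with a median of -0.24, and with any *Myoc* in column group 8 it was 3 and 3, with a median of -0.09. With any *Myoc* in column group 10, 12 fell and none rose, with a median of -0.88. The study chose this list on these samples, so it is no independent evidence of a direction. *Fgl2*, a fibrinogen-like protein, was at 2510.2, 1696 and 1828 CPM in WT and 587, 569 and 578 CPM in Arom mice (log2 fold change -1.80 ± 0.20, edgeR adjusted p = 0.0035), and *Apod*, the gene of apolipoprotein D, was at 2112, 872 and 1559 CPM in WT and 394, 486 and 306 CPM in Arom mice (log2 fold change -1.94 ± 0.32, edgeR adjusted p = 0.011). Both were also called inside column group 8. With any *Myoc* there, neither passed: *Fgl2* was at -0.51 (edgeR adjusted p = 0.122) and *Apod* at -0.72 (edgeR adjusted p = 0.0946). *Cilp* was at 782, 1324 and 1419 CPM in WT and 2651, 2350.2 and 2894 CPM in Arom mice (log2 fold change 1.17 ± 0.25, edgeR adjusted p = 0.0259). Of 13 tested tenocyte genes *Col12a1*, *Fibin* and *Thbs2* rose and none fell, with a median of 0.05. Inside column group 8 alone 4 of 11 rose, with a median of 0.24, and with any *Myoc* 2 rose and 1 fell in column group 8 (median 0.26) and none rose and 2 fell in column group 10 (median -0.44). *Fibin* was at 319, 362 and 344 CPM in WT and 1241, 998 and 521 CPM in Arom mice (log2 fold change 1.43 ± 0.29, edgeR adjusted p = 0.0227).

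Markers of fibro-adipogenic progenitors moved in both directions, and some genes of lipid handling fell. Of 13 tested markers of fibro-adipogenic progenitors 3 fell and 1 rose, with a median log2 fold change of 0.15 and 8 values above 0. Inside column group 8 alone 1 of these markers fell and none rose, with a median of 0.23. With any *Myoc*, 3 rose and none fell in column group 8 (median 0.27), and 4 rose and 2 fell in column group 10 (median 0.25). *Gsn*, the gene of the actin-severing protein gelsolin, was at 23399, 14949 and 21853 CPM in WT and 2988, 2209 and 4838 CPM in Arom mice (log2 fold change -2.59 ± 0.34, edgeR adjusted p = 0.00397). *Dpp4*, a cell-surface protease, was at 141, 65.3 and 74.8 CPM in WT and 30.5, 25.9 and 48.5 CPM in Arom mice (log2 fold change -1.49 ± 0.33, edgeR adjusted p = 0.0299). *Dpp4* did not pass inside column group 8, at -0.62 (edgeR adjusted p = 0.433), and turned to 0.13 there with any *Myoc* (edgeR adjusted p = 0.827). *Wisp1* was at 11.6, 5.02 and 16.4 CPM in WT and 61.7, 57.7 and 31.5 CPM in Arom mice (log2 fold change 2.17 ± 0.41, edgeR adjusted p = 0.0176). Of 11 tested tendon sheath and progenitor genes *Has1*, a hyaluronan synthase, was at 3269.8, 1025 and 2492 CPM in WT and 609.6, 359 and 495 CPM in Arom mice (log2 fold change -2.22 ± 0.39, edgeR adjusted p = 0.0143), and *Htra4* rose by 1.59 ± 0.28 on the log2 scale (edgeR adjusted p = 0.0136). Of 9 tested lipid and adipogenic genes 5 fell, with a median of -1.21. With any *Myoc* none of 9 passed in column group 8, by edgeR (median -0.45), and 3 of 7 fell in column group 10 (median -0.78). *Cebpd*, a transcription factor of early adipogenesis and of the acute stress response, was at 2178, 1168 and 2301 CPM in WT and 479.8, 341 and 465 CPM in Arom mice (log2 fold change -2.14 ± 0.28, edgeR adjusted p = 0.00397), and *Cd36*, the fatty acid transporter, was at 12.9, 20.1 and 7.01 CPM in WT and 2.6, 3.93 and 2.37 CPM in Arom mice (log2 fold change -2.09 ± 0.46, edgeR adjusted p = 0.0299). *Cebpa* and *Cebpb*, transcription factors of adipogenesis, fell by 1.65 (edgeR adjusted p = 0.0404) and 1.11 (edgeR adjusted p = 0.0465). *Cebpa* overlapped between genotypes, at 7.01 CPM in WT3 and 7.45 CPM in Arom3.

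Immediate early and heat shock genes, which respond quickly to stress and dissociation, were lower in Arom mice. Of 20 tested, 9 fell and none rose, with 19 values below 0 and a median of -0.78. Inside column group 8 alone 3 fell and none rose, with a median of -0.66. With any *Myoc* 6 fell in column group 8 (median -0.66) and 7 in column group 10 (median -0.60), and none rose. *Junb* was at 5799, 2055 and 4428 CPM in WT and 1482, 1143 and 1218 CPM in Arom mice (log2 fold change -1.68 ± 0.34, edgeR adjusted p = 0.0229), *Zfp36* at 795, 723 and 1265 CPM in WT and 321, 262 and 328 CPM in Arom mice (log2 fold change -1.61 ± 0.24, edgeR adjusted p = 0.00702) and *Socs3* at 802, 354 and 610.2 CPM in WT and 123, 74 and 155 CPM in Arom mice (log2 fold change -2.34 ± 0.34, edgeR adjusted p = 0.00702). Their summed level, in plain CPM, was 19876 to 20372 in WT and 11024 to 12457 in Arom mice. It was likewise 17969.7 to 22156 against 12085 to 15106 CPM in *Myoc*-gated cells and 27708 to 30055 against 18058 to 22596 CPM in *Pecam1*-gated cells, so it moved with genotype in cells of other kinds of the same libraries. Tested alone, 1 of 20 fell in *Myoc*-gated cells, with a median of -0.44, and 5 of 20 in *Wif1* *Comp*-gated cells, with a median of -0.83. *Fosl2*, *Socs3*, *Myc* and *Dnajb1* had lower fold changes in the *Prg4* *Angptl1* cells than in *Myoc*-gated cells, by edgeR's test of the difference, and 0 of 20 had higher ones. Against *Wif1* *Comp*-gated cells 0 of 20 differed. The part that handling of the libraries had in these values was not tested. Of 6 tested cell cycle genes *Cdkn1a*, *Pcna* and *Ccnd1* fell and none rose, with log2 fold changes of -1.47 ± 0.23, -1.11 ± 0.22 and -1.40 ± 0.35 (edgeR adjusted p = 0.00922, 0.0199 and 0.0458). Inside column group 8 *Cdkn1a* passed (edgeR adjusted p = 0.0479), and *Pcna* and *Ccnd1* did not (edgeR adjusted p = 0.131 and 0.285). No change of cycling is read from these genes.

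Markers of other cell types were low, and some moved with genotype. Summed over the list, macrophage and T cell markers were at 8.69 to 30.5 plain CPM in WT and 78.8 to 99.3 in Arom mice. In members of column group 8 they were at 11.2 to 30.9 and 8.28 to 31.0 CPM. Of the 5 tested, *Lyz2*, *C1qa* and *C1qb* rose. *C1qa* had 0 UMIs in WT and 160 in Arom mice, at least 7.19-fold higher against a floor of 3 counts over the WT mice, and 5 cells held 86.3% of its UMIs. Endothelial markers were at 65.2 to 119.7 CPM in WT and 30.2 to 41.2 in Arom mice, against 4766 to 6390 CPM in *Pecam1*-gated cells, and *Cldn5* and *Flt1* fell. Glial markers were at 6.90, 264 and 222 CPM in WT and 11.8 to 43.4 CPM in Arom mice, with none of 2 tested passing. The part of such RNA in the other results was not tested.

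Smaller lists gave few calls. *Acta2*, a contractile actin of smooth muscle and myofibroblasts, was at 22, 2.51 and 21 CPM in WT and 98.1, 189.5 and 43 CPM in Arom mice (log2 fold change 2.75 ± 0.65, edgeR adjusted p = 0.0372), and the other 4 tested smooth muscle and pericyte genes did not pass. Inside column group 8 *Acta2* passed at 3.59 (edgeR adjusted p = 0.0118), and with any *Myoc* there it was at 2.18 (edgeR adjusted p = 0.0525). Of 6 tested cartilage and bone genes *Cilp* and *Alpl* rose, and *Alpl*, an alkaline phosphatase, was at 5.17, 37.7 and 16.4 CPM in WT and 62.4, 57.5 and 62 CPM in Arom mice (log2 fold change 1.82 ± 0.44, edgeR adjusted p = 0.0398). None of 3 tested muscle genes or 2 tested red cell genes passed, and no mesothelial gene had enough counts to be tested.

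The genotype difference of the *Prg4* *Angptl1* cells was set against that of the *Myoc*-gated cells of the same mice, by testing the difference of the fold changes itself. It differed in 393 of 11569 genes (3.4%), of which 131 (1.13%) were higher and 262 (2.26%) lower in the *Prg4* *Angptl1* cells. Without WT1 the count was 76, without WT3 96, without Arom1 206 and without Arom2 258. Tested alone, *Myoc*-gated cells had 204 calls among 11386 genes (1.79%). *Gpc3* fell by 3.84 in the *Prg4* *Angptl1* cells, and in *Myoc*-gated cells it was at 126, 224 and 211 in WT and 65.8, 91.6 and 124 in Arom mice CPM, a difference of log2 fold changes of -2.85 ± 0.18 (SE), edgeR adjusted p = 6.98e-05. *Kitl*, the gene of stem cell factor, was at 116, 141 and 166 CPM in WT and 19.1, 23.6 and 36.3 CPM in Arom mice in the *Prg4* *Angptl1* cells and at 105, 125 and 126 in WT and 132, 136 and 137 in Arom mice CPM in *Myoc*-gated cells, a difference of -2.60 ± 0.22 (SE), edgeR adjusted p = 0.000561. *Kitl* therefore differed by genotype in the *Prg4* *Angptl1* cells and lay within a narrow range in all 6 mice in the *Myoc*-gated cells.

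In this comparison 8 of 20 tested complement and acute phase genes, among them *C1ra*, *C2*, *C3*, *C4b*, *Serping1*, *Lbp* and *Ptx3*, had lower fold changes in the *Prg4* *Angptl1* cells and none higher. Tenocyte genes *Col11a1*, *Col12a1*, *Fibin* and *Thbs2* had higher ones (4 of 14), and so did the proteases *Mmp14*, *Mmp19*, *Adamts2* and *Htra1* (4 of 17) and *Esr1*, *Greb1* and *Nppc* (3 of 11 sex steroid genes). The red cell genes *Hba*-a1, *Hbb*-bs and *Hbb*-bt were higher (3 of 3) and the endothelial gene *Cldn5* lower (1 of 7). Of 8 muscle markers 5 fell in Arom mice in the *Myoc*-gated cells tested alone (median log2 fold change -2.52), and none of 8 differed between the sets, by edgeR. Summed red cell markers were at 291, 6.01 and 4.78 plain CPM in *Prg4* *Angptl1* cells of Arom mice and 949, 13.8 and 29.6 plain CPM in *Myoc*-gated cells of WT mice, so Arom1 and WT1 stood apart, and their part in the other differences was not tested. None of the 4 label markers differed at the threshold, by edgeR. Since the *Myoc*-gated cells had to carry *Myoc* and the *Prg4* *Angptl1* cells had to lack it, the choice of cells stands between these sets beside any other difference. Pooled over mice, *Gpc3* was at 120 CPM in members of column group 8 and 5.00 CPM in those of column group 10. In the same order *C4b* was at 589 against 91.7 CPM and *Lbp* at 1610 against 323 CPM. *Nppc* ran the other way, at 86.9 against 1167 CPM. These pooled levels mix genotypes, since column group 10 held few WT cells, but each of these 4 genes kept its direction in 4 of the 4 mice compared. The part of the column-group makeup in these differences was not tested.

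Against the *Wif1* *Comp*-gated cells the genotype difference was unlike in 54 of 7350 genes (0.735%), 9 higher (0.122%) and 45 lower (0.612%). Without WT1, WT3, Arom1 or Arom2 it was 9, 5, 31 and 6 in that order. Those cells had 26 calls among 6037 genes (0.431%) on their own, from 33 to 138 cells per mouse. Among these calls *Lyz2* rose by 4.05 (edgeR adjusted p = 0.0271) and *Cd74* by 6.43 (edgeR adjusted p = 0.0248) on the log2 scale. The part of such RNA of other cells in the differences was not tested. *Pcolce2* was at 372, 304 and 268 in WT and 229, 294 and 371 in Arom mice CPM in *Wif1* *Comp*-gated cells, a difference of log2 fold changes of -2.81 ± 0.28 (SE), edgeR adjusted p = 0.00308. *Gsn* was at 10724, 9097 and 9519.8 in WT and 5742, 5403 and 6745 in Arom mice CPM there, a difference of -1.91 ± 0.21 (SE), edgeR adjusted p = 0.00412. *Htra1* was at 669, 605 and 652 in WT and 876, 703 and 736 in Arom mice CPM, a difference of 1.49 ± 0.20 (SE), edgeR adjusted p = 0.0108. *Tgfbi* was the 1 label marker of 4 whose fold change differed, and it was lower in the *Prg4* *Angptl1* cells. No tested tenocyte gene of 14 and no tested collagen of 15 differed at the threshold, by edgeR. *Pcolce2* and *Gsn* also differed between column groups. Pooled over mice, they were at 230 and 8686 CPM in members of column group 8. In members of column group 10 they were at 5.42 and 1815 CPM. These pooled levels mix genotypes, and both genes were higher in column group 8 in 4 of the 4 mice compared. The part of the column-group makeup in these differences was not tested.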

How the data were processed

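Single cells of lower abdominal muscle from 3 WT and 3 Arom hum mice were measured in 1 library per mouse. The authors aligned reads with Cell Ranger 3.0.2 to mm10 with human *CYP19A1* added, and deposited raw UMI counts, not normalized, for 16494 genes and 63647 barcodes. Groups were taken from the sample titles. Library totals were 64958237 to 72876541 UMIs in WT and 92652109 to 111826460 in Arom mice.

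Barcodes with at least 1000 UMIs and at most 10% in the 13 mitochondrial genes were kept, and the rule was applied to their counts. The members and gene lists were chosen with earlier results of these data known. The upper limit of 2500 genes that the study used was tried for the share only, since it left 9 and 7 members in WT2 and WT3. It left 40 members in WT1 and 35, 64 and 13 in the Arom mice. Members had a median of 3304 genes, so the gene results rest mostly on cells above the study's limit. UMIs were summed per mouse, and edgeR 4.0.16 (R 4.3.3) was run as the quasi-likelihood test with TMM factors after its filter on low counts, and p values were Benjamini-Hochberg corrected across all genes tested, at a threshold of 0.05. Differences of genotype effects were tested as an interaction with the mouse as a term. Shares were compared with a 2-sided exact permutation test. The Wilcoxon test on cells that the study ran was left out, since cells are no replicates of a genotype. P-values measure the spread between mice. Thinning drew 3000 UMIs per cell and left out 7 members and 8624 of all barcodes within the limits.

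Named genes were those of the rule and the label, the 12 largest called rises and 12 largest falls among genes with a mean of at least 20 CPM in 1 genotype and no overlap, up to 4 called genes and the 2 highest genes per list, and the 6 called genes of lowest p per interaction. Genes starting Gm, Rp or mt- or ending Rik were not named, and some genes that the rule takes are not reported here. *Esr1*, *Pdgfra* and other genes given only as levels came from the lists. Other list genes were named after their values were seen. Doublets were marked with Scrublet (scanpy 1.11.5). Its automatic cut marked 0% in WT2 and WT3, so the median cut of the other mice was used there, and 1.17% to 2.89% of barcodes were marked. Doublets were kept, and leaving them out was an alternative. Of the barcodes, 943 (1.48%) have a sequence found in more than 1 library, and none was shared between members. Other alternatives were RLE factors, DESeq2 1.42.0, limma 3.58.1 voom, no filter, other thresholds, the replicate number as a block and each mouse left out.

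Tested on simulated data of 8670 genes with 200 changed, the genotype test recovered 41% of 2-fold and 90% of 4-fold changes, and 4.38% of calls were false. The simulated counts had no shift of column-group makeup and no mouse that stood apart, so these rates do not describe the calls made here. Promoter windows came from RefSeq on GRCm38.p6 and matched 6789 of the 8670 tested genes. Intervals of UMI ratios are 95% and cover counting error only. Python 3.11.15, numpy 2.4.6, pandas 2.3.3, scipy 1.17.1 and matplotlib 3.10.9 were used.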

Additional observations from a re-analysis of the deposited data

Results flagged for a closer look

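Each value here marks a genotype effect that differed between 2 sets of cells of the same mice, by edgeR's quasi-likelihood test of the difference with Benjamini-Hochberg adjustment. The Prg4 Angptl1 cells differed from *Myoc*-gated cells in 393 genes. The difference of log2 fold changes was -2.85 for *Gpc3*, -2.60 for *Kitl*, -1.79 for *Fgl2* and -2.07 for *Gsn*, all lower in the Prg4 Angptl1 cells, and 1.58 for *Fbln7*, which was higher. From *Wif1* *Comp*-gated cells they differed in 54 genes. There the difference was -2.81 for *Pcolce2*, -1.91 for *Gsn*, -1.52 for *Clec3b* and -1.51 for *Fgl2*, and 1.49 for *Htra1*. *Iigp1*, an interferon-induced GTPase, had a difference of -4.37, with 261 CPM in Arom1 against 8.50 to 35.0 CPM in the other 5 mice in *Wif1* *Comp*-gated cells. The column-group makeup of the Prg4 Angptl1 cells differed by genotype, and its part in these differences was not tested.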

How the results depend on the processing

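The difference in share over all barcodes kept its direction under the alternatives run, at 1.44 to 2.04 percentage points with 1 mouse left out, but cells with any *Myoc*, taken as a share of the barcodes of 1 column group, turned to -4.86 points in column group 8 (exact p = 0.3) and -1.54 in column group 10 (exact p = 0.9). The exact test cannot go below 0.1 here, and genotypes overlapped with at most 2500 genes (exact p = 0.3), with *Myoc* at any level (0.5, and 0.8 after thinning), with no exclusion (0.9) and in column group 8 as a share of its barcodes (0.3). Against 587 calls, other fits made 302 with at least 5 UMIs of *Prg4* and *Angptl1*, 183 with cells thinned to 3000 UMIs, 132 in column group 8 alone, 180 without column group 10 and 959 with *Myoc* at any level, and 269, 163, 112, 160 and 376 of the 587 were among these in the same direction. Leaving out 1 mouse gave 107 to 861 calls. For the difference from the *Myoc*-gated cells, 393 calls became 628 without a filter on low counts and 76 to 484 with 1 mouse left out. For the difference from the *Wif1* *Comp*-gated cells, 54 became 254 and 5 to 69. Limma voom gave 428 and 72. Pooled over mice, a UMI was found in at least 50% of members for 4 of 4 label markers outside the rule, and for 2 after thinning. By the mean over mice the thinned shares were 58.9% for *Gas1*, 49.5% for *Tgfbi*, 56.6% for *Itgbl1* and 72.4% for *Aspn*. The causes were not tested. Among 121 named genes, 28 turned direction under 1 or more of 20 alternatives, and no turned value passed the test. Of the 28, 6 had passed, *Lyz2*, *Igfbp3*, *Itgbl1*, *Dpp4*, *Loxl4* and *Podn*. Log2 fold changes that turned were as follows. With *Myoc* at any level they were -0.99 for *Lyz2*, 0.64 for *Sfrp2*, 0.0747 for *Igfbp7*, -0.0177 for *Angptl2*, 0.68 for *Angptl7*, 1.04 for *Cd3e*, 1.17 for *Kcnj8*, -0.96 for *Acta1* and -0.77 for *Mylpf*. In column group 8 with any *Myoc* they were 0.15 for *Itgbl1*, 0.27 for *Ly6a*, 0.13 for *Dpp4*, 0.0484 for *Loxl4*, 0.20 for *Podn*, 0.0577 for *Tgfbr3*, 1.12 for *Sfrp2*, 0.11 for *Igfbp7*, 1.46 for *Angptl7*, -0.30 for *Ccnd2*, 1.64 for *Kcnj8*, -1.37 for *Acta1*, -2.18 for *Mylpf*, -1.03 for *Hbb-bs* and -1.02 for *Hba-a1*. In column group 10 with any *Myoc* they were -0.44 for *Thbs4*, 0.0375 for *Ly6a*, -0.37 for *Bgn*, 0.23 for *Timp2*, 0.61 for *Igfbp3*, 0.21 for *Igfbp7*, -0.48 for *Angptl2*, -0.00311 for *Ccnd2*, -0.50 for *Kdr*, 0.25 for *Kcnj8* and -0.90 for *Acta1*. In column group 8 alone they were 0.0814 for *Ly6a*, 0.34 for *Podn*, 0.54 for *Angptl7*, -0.13 for *Ccnd2*, 0.14 for *Mgp*, 0.47 for *Kcnj8* and -0.72 for *Acta1*. Without column group 10 they were 0.084 for *Podn*, 0.51 for *Angptl7*, -0.0118 for *Ccnd2* and 0.41 for *Kcnj8*. Without marked doublets they were -0.0107 for *Sfrp4* and -0.19 for *Mylpf*. *Mylpf* was at -0.0135 with RLE, -0.12 with DESeq2, -0.12 with at least 2 UMIs and -0.0239 with at most 5% mitochondrial UMIs, and *Kcnj8* at 0.12 after thinning. With 1 mouse left out values ran from -0.12 to 0.17 for *Serpinh1*, from -0.33 to 0.43 for *Sfrp4*, from -0.31 to 0.37 for *Angptl2*, from -0.0228 to 0.67 for *Ptx3*, from -0.0678 to 0.46 for *Ccl7*, from -0.13 to 0.45 for *Ccnd2*, from -0.70 to 0.76 for *Kcnj8*, from -1.03 to 1.75 for *Acta1* and from -1.71 to 0.44 for *Mylpf*. The gene test with at most 2500 genes was not run, for want of cells.

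Replicate numbers are shared by the genotypes, and the labels tie them to no date. Deviations of same-numbered mice from their genotype means correlated at 0.131, -0.056 and 0.018, and over all pairings the values ran from -0.186 to 0.146. With 3 mice per genotype, deviations from the genotype mean constrain each other, so these values cannot decide whether the numbers are pairs. For want of a label the numbers were not read as pairs, and the main test does not use the shared dates. With the replicate block edgeR made 643 calls, 500 of them among the 587, *Mylpf* turned to -0.49, and a sign-flip test of the share within numbers gave its lowest possible exact p = 0.25.

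Depth was lower in WT cells, and genes with few WT UMIs have wide intervals. The number of mice limits precision throughout.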
